A study of Mus musculus with 6 samples.

Results

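Gene families with members that the epididymis secretes into its lumen were followed in the epididymal white fat of male mice, a pad that lies against the epididymis. The families were taken by symbol, so genes known mainly from other tissues are among them. The set held the protein-coding genes of GENCODE M21 whose symbols begin with Defb, Spink, Wfdc, Rnase or Lcn followed by a digit, Lcn2 left out, and Crisp1, Crisp4, Adam7, Adam28, Gpx5, Cst8 and Cst11. Of 98 such genes, 62 had at least 1 read over all libraries, out of 23492 genes with reads. The other 36 had none.

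Direct cDNA of poly-A RNA was sequenced on an Oxford Nanopore device from 3 cold mice (cold 7, cold 12 and cold 16) and 3 control mice (ctrl 5, ctrl 6 and ctrl 10). All were male wild type C57BL/6N, an inbred strain, aged 20 weeks per the treatment text. Cold mice were kept singly at 4 °C for 24 h before harvest, while the base housing was at 22 to 24 °C. That text stands on every sample, controls included, so the control mice are known by their ctrl label and their single or group housing is not given. Whole frozen pads were homogenised, so every cell type of the dissected tissue could contribute RNA. Libraries held 725273 to 1192386 gene reads in the cold group and 937641 to 1339385 in the control group, and cold 7 was the shallowest of the 6. Values are reads, or CPM, the reads of a gene scaled to a common total of gene reads per library.

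The epididymis is the coiled duct in which sperm mature after they leave the testis. Its epithelium secretes beta-defensins, protease inhibitors of the Kazal (Spink), whey acidic protein (Wfdc) and cystatin (Cst) types, lipocalins, ribonuclease A family proteins and cysteine-rich secretory proteins (Crisp). Many of them coat the sperm surface, and each stretch of the duct secretes its own mixture. Several relatives are known from elsewhere. In the mouse, Wfdc21 is known as a secreted product of white adipocytes, Wfdc17 of macrophages and Rnase4 of many tissues, whereas most beta-defensins of the set are known mainly from the male tract.

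Cold 7 stood apart from the 5 other libraries in this set, and ctrl 10 stood apart in seminal vesicle genes (at most 7.66 summed CPM in a cold library, against 525 CPM in ctrl 10 and at most 1.49 CPM in the other controls), so values are given per library. Genes of the families with reads numbered 45 in cold 7, 24 in cold 12 and 23 in cold 16, against 14 in ctrl 5, 15 in ctrl 6 and 15 in ctrl 10. Of the 62 genes, 19 had reads in cold 7 alone, which is 30.6%, where the same held for 3.17% of all genes with reads. These shares are not matched for reads per gene, since 21 of the 62 had 10 or more reads, against 14532 of all 23492 genes. The 19 also entered the set only through cold 7. Without cold 7 the set would thus hold 43 genes.

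The set was split by a list of 15 genes with known expression outside the epididymis, of which 12 had reads (Wfdc1, Wfdc2, Wfdc17, Wfdc21, Rnase1, Rnase2a, Rnase4, Rnase6, Spink1, Spink4, Spink5 and Defb1). Those 12 held 2970 of the 3662 reads of the set. Their summed level was 654, 456 and 599 CPM in cold 7, cold 12 and cold 16, against 447, 379 and 491 CPM in ctrl 5, ctrl 6 and ctrl 10. The remaining 50 genes behaved otherwise, with 791, 39.4 and 42.2 CPM in the cold libraries, against 14.9, 10.5 and 8.83 CPM in the controls. Of their 692 reads, 82.9% came from cold 7. The ratio of the mean summed level of these 50 genes, cold over control, was 25.5 with all mice, 3.58 without cold 7 and 22.9 without ctrl 10. A sum over chosen genes was given no test. In bulk RNA, more cells of a type and more RNA per cell cannot be told apart.

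**Figure D1:**
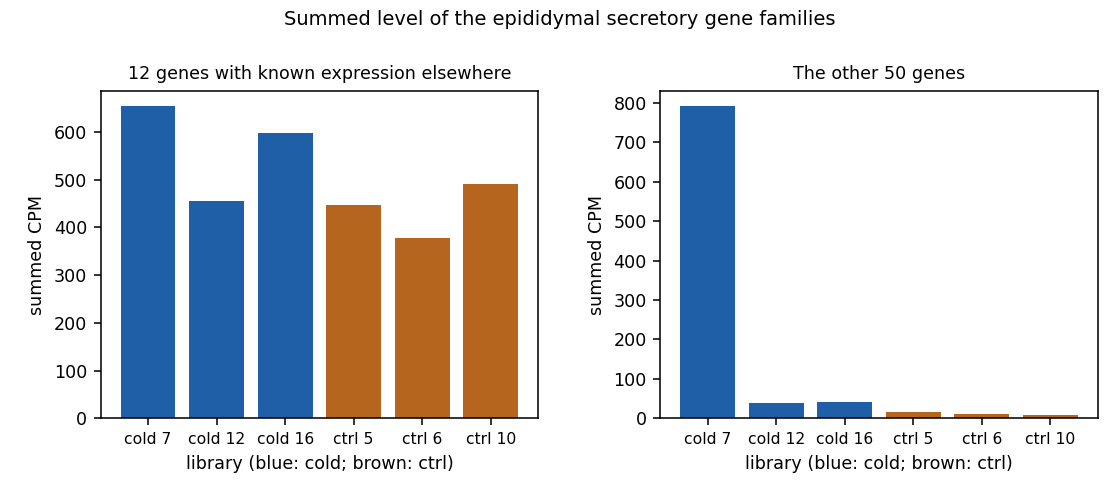
Summed level in CPM (vertical axes, starting at 0) of 12 genes with known expression outside the epididymis (left) and of the other 50 genes of the families (right) in the 3 cold (blue) and 3 control (brown) libraries. The 50 genes reached 791 CPM in cold 7, against 39.4 and 42.2 CPM in the other cold libraries and at most 14.9 CPM in a control library.

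Crisp1 (ENSMUSG00000025431.4, chromosome 17, 40293758 to 40319207, minus strand), which encodes a cysteine-rich protein that coats sperm in the duct and takes part in binding to the egg, had 222 reads in cold 7, 0 in cold 12 and 2 in cold 16, against 0, 0 and 1 in ctrl 5, ctrl 6 and ctrl 10. Its level in cold 7 was 306 CPM. The groups overlapped, since cold 12 was at 0 and ctrl 10 was not. In the mouse, Crisp1 is known mainly from the corpus and cauda, the lower stretches of the duct. Crisp4, the relative secreted by the same organ, had 0 reads in every library.

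The Kazal inhibitor gene Spink8 (chromosome 9, 109812280 to 109826633) had 91, 0 and 0 reads in cold 7, cold 12 and cold 16, against 0, 1 and 0 in ctrl 5, ctrl 6 and ctrl 10. Its cold 7 reads were split between 2 annotated transcripts, 56 on the form with 5 exons and 35 on the form with 4. The metalloprotease-like gene Adam7, whose product lies on the surface of maturing sperm, had 9, 0 and 1 reads in the cold libraries, against 1, 0 and 0 in the controls. Adam28, its neighbour on chromosome 14, had 0 reads throughout.

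Beta-defensins are small cationic proteins that kill microbes and, in the epididymis, join the sperm coat. Of 42 annotated Defb genes 23 had reads, 17 of them in cold 7. Their summed level was 157, 17.6 and 16.6 CPM in cold 7, cold 12 and cold 16, against 3.2, 2.99 and 1.77 CPM in ctrl 5, ctrl 6 and ctrl 10. Defb28 had 34, 0 and 0 reads in the cold libraries, against 0, 1 and 0 in the controls. Defb22, a gene for a sperm coat defensin, and Defb37 and Defb38 each had 13 reads, all in cold 7. These genes were high in cold 7 and at 0 or 1 read in each of the 5 other libraries.

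Defb29 and Defb36 had the opposite order among the cold mice. Defb29 had 1, 5 and 7 reads in cold 7, cold 12 and cold 16, and 0 in every control library. Its pooled cold level was 5.47 times a floor of 3 reads for the whole control group, a ratio that leaves out counting error in the cold reads. The pooled cold level of Defb29 was 4.81 CPM (95% counting interval 2.56 to 8.23), against 0 CPM (0 to 1.08) in the controls. Defb36 had 0, 12 and 4 reads in the cold libraries, against 2, 0 and 0 in the controls, a pooled ratio of 10.1 with a 95% counting interval of 2.38 to 90.6. Groups did not overlap for Defb29 and did for Defb36, where cold 7 was at 0. Such intervals and floors cover counting error alone, and not the spread between mice.

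Defb22, Defb28, Defb29 and Defb36 all lie within 1 defensin cluster of 164 kb (chromosome 2, 152459055 to 152623053). Defb28 and Defb29 are separated by 17.3 kb, and Defb36 begins 64.2 kb beyond Defb29. Over the cluster, 10 of 11 annotated genes had reads, with 56, 19 and 12 reads in cold 7, cold 12 and cold 16, against 3, 1 and 0 in ctrl 5, ctrl 6 and ctrl 10. A second defensin cluster, on chromosome 8 (18974940 to 19497775), had 36 reads, all in cold 7, on Defb37, Defb38, Defb39 and Defb40, and 0 on its 10 other genes. The next cluster on chromosome 8 (21776599 to 21948850) had 14 of its 16 reads in cold 7.

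The transcripts of Defb37, Defb38 and Defb39 are alike, each matching its closest relative among the defensins at 79.8% to 81.9% of aligned bases, so the split of reads among them is uncertain. For Defb38 all 13 reads were in the file marked X1 of the 2 deposited for cold 7, whereas Defb37 had 8 and 5 reads in those marked X1 and X2. Among defensins with 5 to 9 reads, Defb39 (7 reads) and Defb43 (8 reads) were seen in cold 7 alone, and Defb2 and Defb19 had 5 and 4 reads in cold 7 and 1 each in cold 12.

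Wfdc proteins carry the 4-disulfide core of whey acidic protein and mostly inhibit serine proteases. A cluster of 14 such genes spans 570 kb of chromosome 2 (164176327 to 164745931), and 13 of them had reads. The cluster had 123, 20 and 18 reads in cold 7, cold 12 and cold 16, against 3, 0 and 1 in ctrl 5, ctrl 6 and ctrl 10. Wfdc15b had 38, 8 and 1 reads in the cold libraries and 0 in each control, so its groups did not overlap. Its pooled cold level was 19.8 times the same control floor of 3 reads, with counting error in the cold reads left out. Of the 47 reads of Wfdc15b, 38 were in cold 7. Its transcript matched that of Wfdc15a at 74.3% of aligned bases, and Wfdc15a had 1 read.

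Wfdc10 had 34, 0 and 1 reads in cold 7, cold 12 and cold 16, Wfdc13 had 30, 0 and 1, and Wfdc16 had 11, 0 and 1, and each had 0 reads in all controls. Cold 7 was thus high in these genes while cold 12 was at 0. Wfdc10 overlaps Wfdc9 on the other strand, which had 3 reads, and the use of strand in the counting is not given in the sources used here.

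Wfdc2, known as HE4 and made by many epithelia, followed the order of Defb29. It had 1, 6 and 11 reads in cold 7, cold 12 and cold 16 and 0 in each control. The groups did not overlap, and the pooled cold level was 7.58 times the same floor, again with counting error in the cold reads left out. Its 18 reads fell on 3 annotated transcripts.

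**Figure D2:**
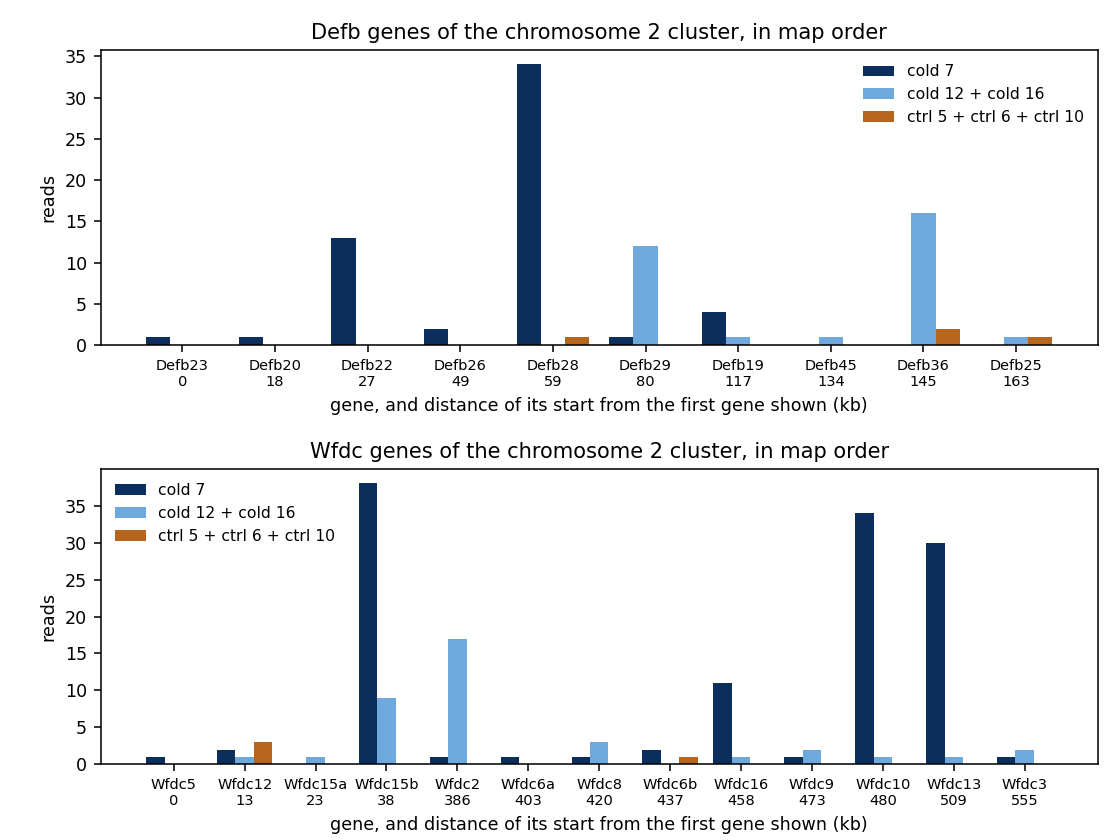
Reads (vertical axes) of the Defb (top) and Wfdc (bottom) genes of the 2 chromosome 2 clusters, in map order with the distance of each start from the leftmost gene in kb, for cold 7, for cold 12 and cold 16 added, and for the 3 controls added. Defb28, Defb22, Wfdc10 and Wfdc13 were seen mainly in cold 7, and Defb29, Defb36 and Wfdc2 mainly in cold 12 and cold 16.

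The promoters below belong to the 5 genes with most reads among the 50 that have an entry in the RefSeq promoter table (build GRCm38.p6), and let Crisp1, Wfdc15b, Defb28 and Wfdc10, with most reads in cold 7, be set beside Defb36, with none there. Each runs from 250 bases before to 50 bases after the start, 5′ to 3′ on the strand of the gene. They lie at chr17:40319158-40319457 (- strand), chr2:164221614-164221913 (- strand), chr2:152518005-152518304 (+ strand), chr2:164655796-164656095 (+ strand) and chr2:152604077-152604376 (+ strand). Capitals mark TATAAA, the TATA box, and AGAACA or its complement TGTTCT, the core hexamer that androgen receptor sites are built from.
Crisp1: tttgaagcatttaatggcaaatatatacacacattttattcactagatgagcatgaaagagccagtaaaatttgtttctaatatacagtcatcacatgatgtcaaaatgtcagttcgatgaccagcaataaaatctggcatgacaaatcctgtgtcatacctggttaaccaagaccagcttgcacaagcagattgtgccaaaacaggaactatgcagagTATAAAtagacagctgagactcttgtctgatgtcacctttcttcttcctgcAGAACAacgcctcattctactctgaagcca
Wfdc15b: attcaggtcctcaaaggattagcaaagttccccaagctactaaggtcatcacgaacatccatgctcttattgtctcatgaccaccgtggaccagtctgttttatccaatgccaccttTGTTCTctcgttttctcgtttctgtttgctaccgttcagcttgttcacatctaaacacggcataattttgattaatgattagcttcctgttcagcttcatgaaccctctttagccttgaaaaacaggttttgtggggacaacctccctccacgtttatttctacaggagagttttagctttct
Defb28: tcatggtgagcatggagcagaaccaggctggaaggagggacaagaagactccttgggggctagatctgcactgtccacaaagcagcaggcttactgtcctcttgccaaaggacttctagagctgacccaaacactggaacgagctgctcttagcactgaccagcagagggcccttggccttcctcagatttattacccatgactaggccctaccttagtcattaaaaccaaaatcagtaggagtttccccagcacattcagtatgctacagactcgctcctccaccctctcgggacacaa
Wfdc10: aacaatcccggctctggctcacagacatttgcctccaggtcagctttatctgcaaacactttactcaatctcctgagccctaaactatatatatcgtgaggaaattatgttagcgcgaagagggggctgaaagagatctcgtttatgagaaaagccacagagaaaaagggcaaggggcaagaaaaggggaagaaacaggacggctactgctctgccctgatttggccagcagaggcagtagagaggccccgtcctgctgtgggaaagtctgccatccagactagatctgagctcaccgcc
Defb36: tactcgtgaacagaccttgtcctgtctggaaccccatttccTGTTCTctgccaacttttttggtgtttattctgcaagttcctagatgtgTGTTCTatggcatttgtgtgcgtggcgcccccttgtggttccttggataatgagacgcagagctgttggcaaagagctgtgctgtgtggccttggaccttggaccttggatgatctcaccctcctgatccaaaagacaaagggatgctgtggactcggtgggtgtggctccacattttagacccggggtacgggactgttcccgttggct

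Both strands were searched. TATAAA was found in the Crisp1 promoter, 31 bases before the start, and AGAACA in those of Crisp1, Wfdc15b and Defb36, the last with 2 matches. The Defb28 and Wfdc10 windows held neither string, so the matches did not separate Defb36 from the 4 others. Of 51 promoters of 42 genes of the set in the table, 19 (37.3%) held AGAACA and 6 (11.8%) held TATAAA, against 19% and 13.6% of all 32851 promoters. The complete palindromic androgen response element was in 0 of the 51 and in 3 of all. A match is a string of letters, not a shown binding site.

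Lipocalins, secreted carriers of small lipids, were close to the detection limit. Of 9 annotated Lcn genes 4 had reads, 5 in all, with 2, 0 and 1 in cold 7, cold 12 and cold 16, against 0, 1 and 1 in ctrl 5, ctrl 6 and ctrl 10. Gpx5, a secreted glutathione peroxidase, and the cystatin gene Cst11 had 0 reads, and the cystatin gene Cst8 had 1 read in cold 12 and 1 in ctrl 10. In the mouse, Gpx5, Cst8 and Lcn8 are known from the upper duct, the initial segment and caput. In cold 7, where Crisp1 had 222 reads, Gpx5, Cst8 and Lcn8 were at 0, and a count of 0 there allows up to 3 reads or 4.14 CPM. These genes are examples and not a full list for a stretch of the duct. Other genes of the set, such as Adam7 (9 reads) and Lcn12 (2 reads), were seen in cold 7. The stretch of duct was not tested.

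Of 10 annotated ribonuclease genes 7 had reads. Rnase9 and Rnase12, known from the male tract, had 3 reads each, all in cold 7, and Rnase10, known from the initial segment, had 0 in the cold libraries, against 0, 2 and 1 in ctrl 5, ctrl 6 and ctrl 10. Rnase2a, an eosinophil-type ribonuclease, had 7, 2 and 1 reads in cold 7, cold 12 and cold 16, against 1, 1 and 4 in the controls. Rnase6, an antimicrobial ribonuclease of myeloid cells, had 1, 2 and 4 reads in the cold libraries, against 4, 7 and 8 in the controls. The groups overlapped in both genes.

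**Figure D3:**
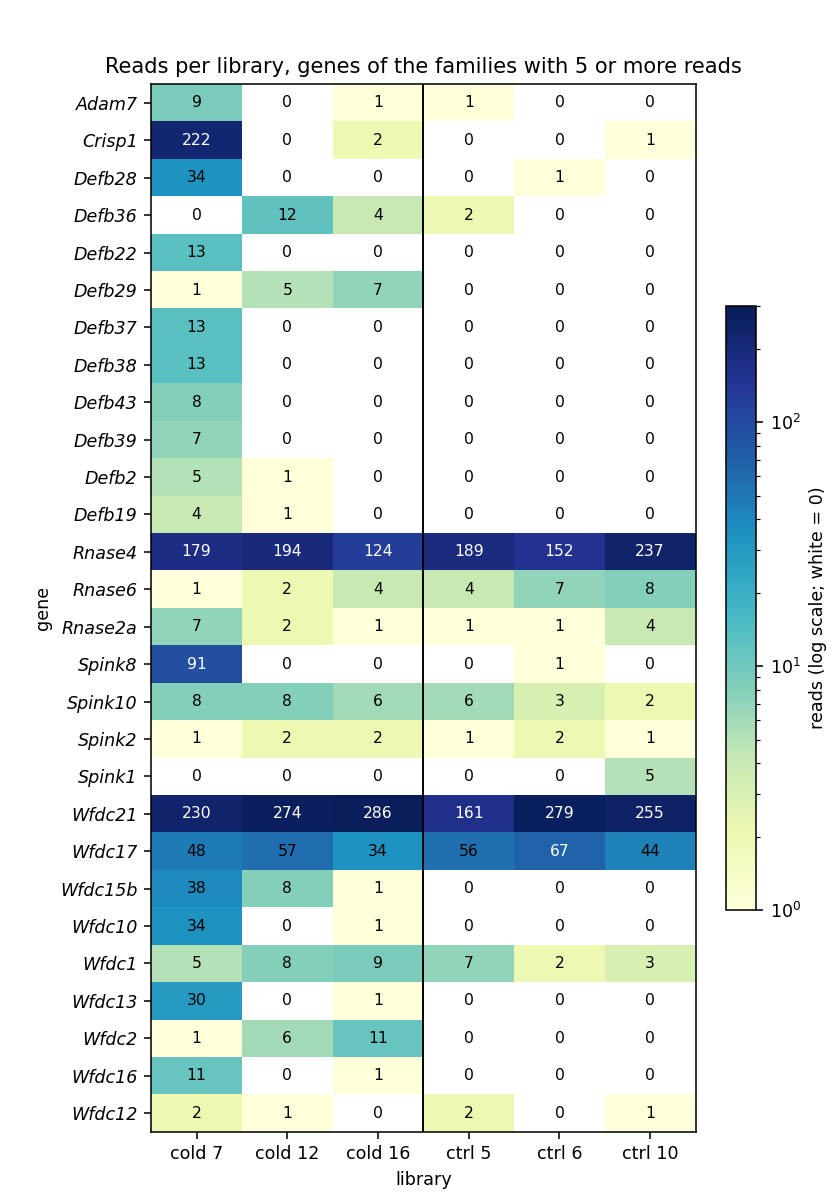
Reads of the 28 genes with 5 or more reads (rows, grouped by family) in the 3 cold and 3 control libraries (columns), with colour on a log scale and white for 0. Crisp1, Spink8 and most Defb and Wfdc genes are filled in cold 7. Wfdc21, Rnase4 and Wfdc17 are filled in every library, as are Spink10, Wfdc1, Rnase2a, Rnase6 and Spink2 at low counts.

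Of the 62 genes, 3 passed the low-count filter and were tested in the fit over all genes, namely Wfdc21, Rnase4 and Wfdc17. By edgeR's quasi-likelihood test 0 of the 3 passed an adjusted p of 0.05, where 0.655% of all 9772 tested genes did (0.542% higher in the cold). At an unadjusted p below 0.05 it was 1 of the 3, a limit at which the share over all genes is not given. DESeq2 and limma-voom also called 0 of the 3, where they called 46 and 48 genes in all. The log2 fold changes (cold minus control) of Wfdc21, Rnase4 and Wfdc17 in edgeR were 0.60, 0.14 and 0.10, and the median over all tested genes was 0.01.

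Wfdc21 (chromosome 11, 83746940 to 83752642, plus strand), the adipocyte product also called Wdnm1-like, had 317, 229.8 and 365 CPM in cold 7, cold 12 and cold 16, against 172, 208 and 225 CPM in ctrl 5, ctrl 6 and ctrl 10. Every cold library lay above every control, though cold 12 only by a little. Means were 304 ± 68.7 CPM in the cold and 202 ± 27.3 CPM in controls (SD, n = 3 each). The log2 difference was 0.60 ± 0.16 (SE), and the edgeR adjusted p was 0.141. Without cold 12 the edgeR adjusted p was 0.0451, and without any of the other mice it was between 0.156 and 0.475.

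Rnase4 (chromosome 14, 51091077 to 51106151), a ribonuclease gene whose locus overlaps the angiogenin gene Ang on the same strand, had 247, 163 and 158 CPM in cold 7, cold 12 and cold 16, against 202, 114 and 209 CPM in ctrl 5, ctrl 6 and ctrl 10. The groups overlapped, and the log2 difference of 0.14 ± 0.21 (SE) was within the spread between mice (edgeR adjusted p = 0.922). Reads on Ang numbered 48 over all libraries, so the division between both genes is uncertain. Of the 2 Rnase4 transcripts, Rnase4-202 held 37.4%, 36.1% and 50% of the reads in the cold libraries, against 32.8%, 36.8% and 37.1% in the controls. Cold 16 was the highest of the 6, and shares were not tested.

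Wfdc17 (chromosome 11, 83703991 to 83706268), a macrophage product that lies 40.7 kb from Wfdc21, had 66.2, 47.8 and 43.4 CPM in the cold libraries, against 59.7, 50.02 and 38.8 CPM in the controls. The groups overlapped widely (log2 difference 0.10 ± 0.21, SE, edgeR adjusted p = 0.957). Its nearest relative Wfdc18 matched it at 84.9% of aligned bases and had 0 reads. Macrophage markers summed to 1219, 983 and 807 CPM over 8 genes in cold 7, cold 12 and cold 16, against 1085, 799 and 971 CPM in ctrl 5, ctrl 6 and ctrl 10, and 0 of the 8 passed the test.

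**Figure D4:**
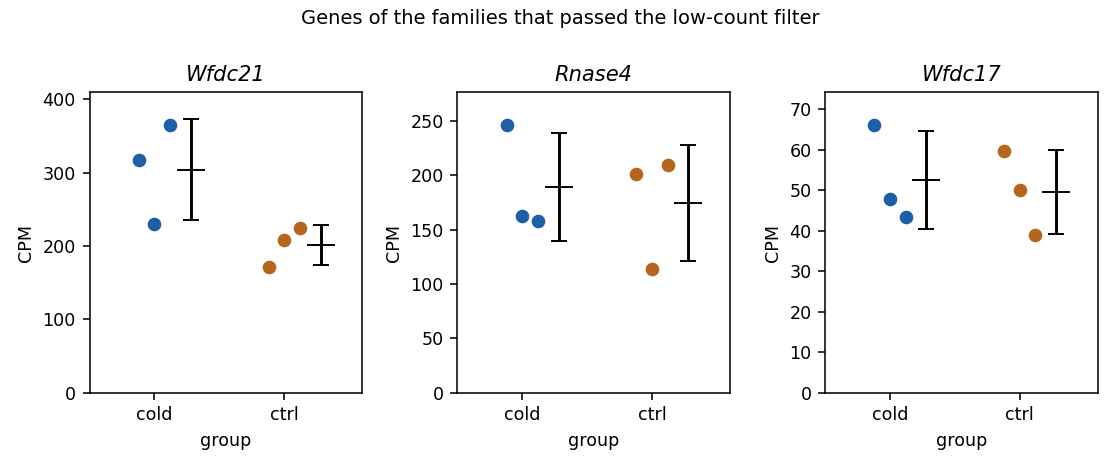
CPM of Wfdc21, Rnase4 and Wfdc17 in each mouse (points) with mean and SD (black, n = 3) for the cold and control groups. Cold and control points do not overlap for Wfdc21 and overlap for Rnase4 and Wfdc17.

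Of the 4 transcripts of the set that could be tested, the 2 of Rnase4 and 1 each of Wfdc21 and Wfdc17, 0 passed by edgeR, where 0.381% of 12325 tested transcripts did. At an unadjusted p below 0.05 it was 1, and DESeq2 and limma-voom called 0, with the shares over all transcripts not given for these. Of all reads of the set 99.7% were on transcripts annotated as protein-coding.

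When the low-count filter was removed, 13 of the 62 genes passed in edgeR (21%), all higher in the cold, where 1.58% of all 23492 genes did and 1.3% were higher in the cold. They were Crisp1, Spink8, Wfdc2, Wfdc10, Wfdc13, Wfdc15b, Wfdc16, Wfdc21, Defb22, Defb28, Defb29, Defb37 and Defb38. Defb22 passed with all its 13 reads in cold 7 (edgeR adjusted p = 0.00655). The p-values of fits without the filter therefore do not measure the spread between mice for such genes, and these calls are descriptive. Without both the filter and cold 7, 4 of the 43 genes left passed, where 1.78% of 22747 genes did and 1.43% were higher in the cold. These were Defb29 (edgeR adjusted p = 0.00269), Defb36 (edgeR adjusted p = 0.00409), Wfdc15b (edgeR adjusted p = 0.0385) and Wfdc2 (edgeR adjusted p = 2.33e-05). Of these 4, only Defb36 had reads in a control library. Defb29, Wfdc15b and Wfdc2 had none, so they entered the set and this fit through cold mice alone. These 4 calls and their share are therefore descriptive too, and are no test of the set. Of the 13 calls, 3 were made in both fits. Among the 10 others, Defb22, Defb37 and Defb38 had no reads left without cold 7 and were not fitted. Crisp1 kept 2 cold reads, Wfdc10, Wfdc13 and Wfdc16 kept 1 each, and Defb28 and Spink8 kept 0. Wfdc21 differed from these, since its log2 fold change was 0.58 with no filter and 0.53 without cold 7 as well (edgeR adjusted p = 0.0577). The number of the 62 whose groups did not overlap was 7, all higher in the cold (11.3%, where 5.23% of all genes with reads were). Non-overlap with controls higher was seen in 0 of the 62, where 4.96% of all genes showed it. It needs reads in every control, and 37 of the 62 genes had no reads in any control. Those 37 entered the set through cold mice alone, so the shares in both directions describe the set and are no test. The 7 were Wfdc21, Wfdc15b, Wfdc2, Defb29, Spink10, Wfdc8 and Wfdc9, the last 2 with 4 and 3 reads in all.

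Spink10 had 8, 8 and 6 reads in cold 7, cold 12 and cold 16, against 6, 3 and 2 in ctrl 5, ctrl 6 and ctrl 10. In CPM its groups did not overlap, but it overlaps Spink13 on the other strand and did not pass with no filter (edgeR adjusted p = 0.474) or without cold 7 as well (edgeR adjusted p = 0.754). Wfdc1, a stromal protease inhibitor gene, had 5, 8 and 9 reads in the cold libraries, against 7, 2 and 3 in the controls, with overlap. Spink2, a sperm protein gene, had 1 or 2 reads in each of the 6 libraries. Wfdc12 had 2, 1 and 0 reads in the cold libraries, against 2, 0 and 1 in the controls. Spink1 had 5 reads, all in ctrl 10. A further 34 genes had 1 to 4 reads, and in 14 of those all reads were in cold 7.

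Reads concentrated in 1 library were rare elsewhere. Of 14532 genes with at least 10 reads, 19 (0.131%) had 80% or more of them in cold 7, a limit chosen after the values were seen. Of the 21 genes of the set with at least 10 reads, 11 did (52.4%), so the set made up 11 of the 19. All 19 reached 10 reads only through cold 7, so these shares describe where reads fell and are no test. The 8 others were Ces5a, Npy, Serpina16, BC048679, Ly6f, Glb1l3, Pate1 and Spint3, with 11 to 25 reads in cold 7. Ces5a, an esterase secreted by the epididymis, had 25, 1 and 0 reads in cold 7, cold 12 and cold 16 and 0 in each control.

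Other markers were read beside the set. Of 15 further genes known from epididymal epithelium, 11 had reads, with 66.2, 25.2 and 29.4 summed CPM in cold 7, cold 12 and cold 16, against 2.13, 2.24 and 2.65 CPM in ctrl 5, ctrl 6 and ctrl 10. Pax8, a duct transcription factor, had 6, 17 and 9 reads in the cold libraries, against 1, 0 and 0 in the controls, so this list did not follow cold 7 in every gene. Without Ces5a, left out after its values were seen, the list summed to 31.7, 24.3 and 29.4 CPM in cold 7, cold 12 and cold 16, against the same 2.13, 2.24 and 2.65 CPM in ctrl 5, ctrl 6 and ctrl 10, so most of the gap between cold 7 and the other cold libraries came from that gene. The 13 simple epithelium genes summed to 131, 229 and 178 CPM in the cold, against 58.7, 21.7 and 39.7 CPM in controls. Of the 5 tested, 4 rose, Epcam, Krt8, Krt18 and Cldn7, where 0.542% of all tested genes were higher in the cold. The other tested gene, Krt19, did not pass (log2 difference 0.72, edgeR adjusted p = 0.658). Krt7, not tested, went the other way, with a mean of 5.75 CPM in the cold against 9.34 CPM in controls. The keratin gene Krt8 had a log2 difference of 3.14 ± 0.40 (SE), with an adjusted p of 0.000105 in edgeR. The 11 genes of efferent ducts and motile cilia summed to 86.9, 231 and 217 CPM, against 28.8, 13.4 and 12.4 CPM, and the 1 tested, the endocytic receptor gene Lrp2, rose. Among cold mice, cold 7 had the least of both lists, as of Defb29, Defb36 and Wfdc2.

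Sperm and spermatid genes such as Prm1 and Prm2, the protamines that pack sperm DNA, summed over 7 genes to 117, 139 and 10.2 CPM in cold 7, cold 12 and cold 16, against 1.07, 12.7 and 3.53 CPM in ctrl 5, ctrl 6 and ctrl 10. Cold 12 was therefore high in sperm genes with 0 reads of Crisp1. Of 5 narrow and clear cell genes 3 had reads, and Atp6v1b1, a defining proton pump subunit, had 0. They summed to 8.27, 11.7 and 6.39 CPM in the cold libraries, against 3.2, 3.73 and 7.06 CPM in the controls. The 7 mesothelial genes summed to 176, 71.3 and 80.5 CPM in the cold, against 226, 86.6 and 220 CPM in controls, and 4 B cell genes to 8.27, 7.55 and 6.39 CPM, against 16, 5.23 and 4.41 CPM. Adipocyte markers were present in every library, at 19390, 20010 and 18181 CPM over 6 genes in the cold, against 23826, 24191 and 23028 CPM in controls, with 1 of the 6 higher by the test (the lipase gene Pnpla2) and 0 lower, although all 3 cold sums lay below all 3 control sums. The part of these other cell types in the levels of the set was not tested.

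**Figure D5:**
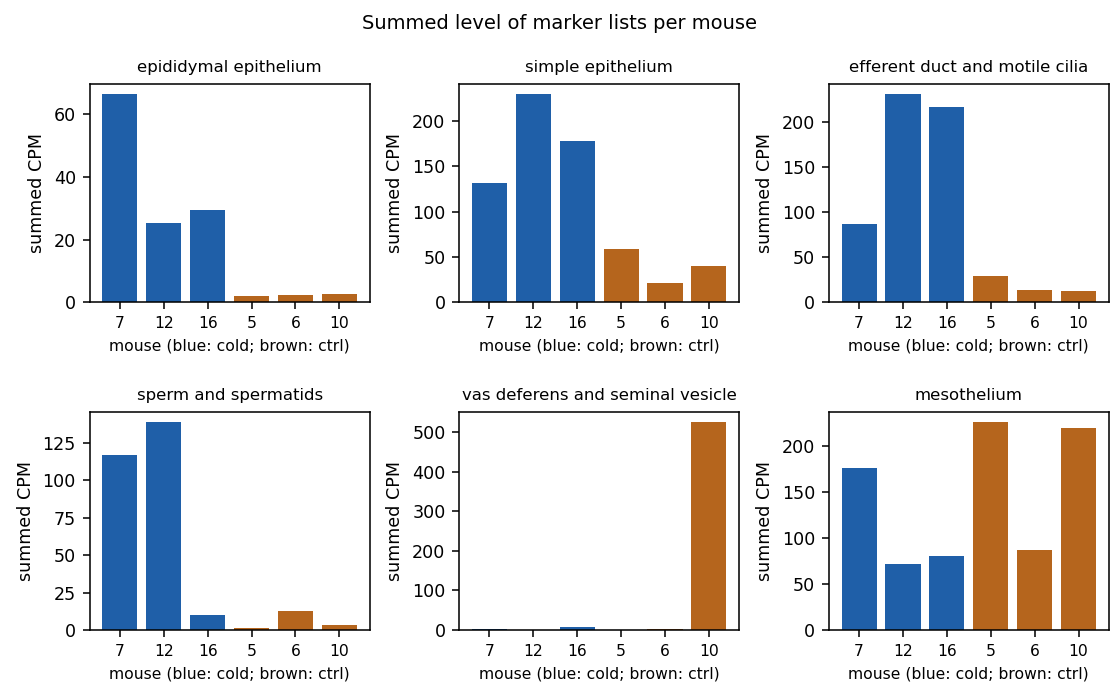
Summed CPM (vertical axes) of 6 marker lists in the 3 cold (blue) and 3 control (brown) mice. Epididymal epithelium genes outside the set are above all controls in each cold library and highest in cold 7, where Ces5a gives 25 of the 48 reads. Simple epithelium and efferent duct genes peak in cold 12 and cold 16, sperm genes in cold 7 and cold 12, and vas deferens and seminal vesicle genes in ctrl 10.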

How the data were processed

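Poly-A RNA of whole epididymal fat was sequenced as direct cDNA in 6 mice, 3 per group. The authors deposited raw read counts per transcript, 2 files per mouse and 12 in all, listing transcripts with at least 1 read. Per the submitters' processing notes, minimap2 and GRCm38 were used. No source used here names the counting tool, its use of strand or what separates the 2 files. Both files were summed per mouse.

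Of 61729 transcript identifiers 61538 matched GENCODE M21, ignoring versions. The rest held 0.139% to 0.165% of reads and entered transcript tests alone. In the shallowest library 1 read is 1.38 CPM, and in the deepest 0.747 CPM.

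The quasi-likelihood test of edgeR 4.0.16, run in R 4.3.3 on genes and on transcripts, used TMM and filterByExpr (minimum count 10), with Benjamini-Hochberg adjustment over all tested and a threshold of 0.05. DESeq2 1.42.0, limma-voom (limma 3.58.1), RLE size factors, other filters, single files and leaving out each mouse were alternatives. The tests were checked on simulated counts. Counting intervals are exact at 95%, and the floor for 0 is 3 reads. Clusters join annotated genes less than 500 kb apart, and similarity between transcripts was computed by global alignment in Biopython 1.88.

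The members, lists, tests and alternatives were chosen with earlier results of these data known. By rule, genes tested and genes with 10 or more reads are given with every library's value, and genes with fewer reads by counts or by the library that held them. Wfdc12, Spink1, Spink2, Rnase10 and Cst8 are given per library beyond that rule, chosen after their values were seen. From the marker lists, summed levels and a few genes are given, some of them (Ces5a, Pax8, Krt7, Krt19, Prm1, Prm2, Atp6v1b1) chosen after their values were seen.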

Additional observations from a re-analysis of the deposited data

How the results depend on the processing

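The count of genes of the set called in the cold was 0 in the fit as reported and 13 with no filter, 4 with no filter and without cold 7 (an alternative chosen after seeing the data), and 0 to 1 over the fits that leave out a mouse, the 1 being Wfdc21 without cold 12. For transcripts of the set these counts were 0, 13 and 3, and 0 to 0 over the mice left out. The share over all transcripts is given for the reported fit alone. All genes called numbered 64 as reported, 371 with no filter, 404 with no filter and without cold 7, 38 with the files marked X2 alone and 35 to 199 over the mice left out, highest without cold 7, 106 without ctrl 5 and lowest without cold 12. The cause of these shifts was not tested.

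The log2 fold change of Rnase4 (0.14) was -0.11 to 0.31 over the mice left out, turning negative without ctrl 6 and without cold 7 (-0.10), and -0.11 with no filter and without cold 7. That of Wfdc17 (0.10) was -0.09 to 0.23, turning negative without cold 7 and without ctrl 10 (-0.04), and was -0.03 with the files marked X2 alone and -0.10 with no filter and without cold 7. Wfdc21 stayed positive in all fits (0.45 to 0.78 over the mice left out) and passed with no filter (0.58, edgeR adjusted p = 0.00771). Its reads there were the same as in the reported fit, where the edgeR adjusted p was 0.141. Without cold 7 as well, its log2 fold change was 0.53 (edgeR adjusted p = 0.0577).

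The summed level of all 62 genes, cold over control, was 1.91, and 1.26 to 2.32 over the mice left out. That of the 50 genes was 25.5, and 3.58 (without cold 7) to 36.6. Of the 62 genes, 46 had 2 or more reads and 33 had reads in both files of a mouse. Most genes of the set are near the limit of 3 reads, so presence in a library can turn on few molecules. No paired analysis was possible because the groups share no replicate numbers.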

Other observations

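Ctrl 10 held a different male tract signal. The 9 vas deferens and seminal vesicle genes summed to 1.38, 0.839 and 7.66 CPM in cold 7, cold 12 and cold 16, against 1.07, 1.49 and 525 CPM in ctrl 5, ctrl 6 and ctrl 10. Svs4 and Svs5, seminal vesicle secretory protein genes, had 200 and 195 reads in ctrl 10. Spinkl, a Kazal-type relative that the symbol rule does not take, had 22 reads, all in ctrl 10, where all 5 reads of Spink1 were too. Crisp1 had 1 read in ctrl 10, and Akr1b7, known from the vas deferens, had 0. Of genes with at least 10 reads, 10 had 80% or more of them in ctrl 10, and 0 of those belonged to the set.

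In cold 12 the 7 genes that concentrated in the same way were Slc7a15, Dnah5, Tekt4, 1700024G13Rik, Nme9, Hydin and Drc1, several of them parts of the motile cilium, and 0 belonged to the set.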
